A study of Mus musculus with 4 samples.

Results

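The 10 core circadian clock genes were followed in whole dorsal skin of adult mice, labelled as telogen, the resting phase of the hair follicle. These are Per1, Per2, Per3, Cry1, Cry2, Nr1d1, Nr1d2, Arntl, Clock and Npas2. They were chosen by name for their place in the clock, with earlier results of these data known. Each was found through array probe sets listed with exactly 1 gene symbol. They had 23 such sets, among 18193 genes measured, and 9 of the 10 lay above the intensity filter that left 10916 genes for testing. The middle telogen group was 2 samples from male C57B6 mice at postnatal day 54 (P54), and the late telogen group was 2 samples from male C57B6 mice at postnatal day 59 (P59). No treatment or mutation is named for either group, and the skin was shaved before removal. The labels speak of biological replicates without naming the animals, so a p-value here measures the spread between these samples. The sources used here do not give the clock hour of tissue collection. Skin was taken whole, and so fewer cells of a type and less RNA per cell cannot be told apart.

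The clock is a feedback loop of transcription. ARNTL (also called BMAL1) pairs with CLOCK or with its relative NPAS2, and the pair binds E-box sequences and switches on the Per, Cry and Nr1d genes. PER and CRY proteins return to the nucleus and silence that pair, whereas the nuclear receptors NR1D1 and NR1D2 (REV-ERB alpha and beta) silence Arntl and Npas2 through a second sequence, the ROR response element (RORE). In tissues with a running loop the transcripts of the Arntl and Nr1d arms peak at opposite times of day, and skin, with its hair follicles, is known to keep such a loop.

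The sequences through which the loop acts were looked up first, because the results below turn on Per1, on its relatives under E-box control, and on Arntl against Nr1d1. RefSeq promoter windows of GRCm38.p6, from 250 bases before each transcription start to 50 after, were matched by symbol for 9 members (13 windows). Both strands were searched for the E-box CACGTG, the E'-box CACGTT, the D-box TTANGTAA that the clock output factors bind, and the RORE. An E-box stood in 7.15% of all 32851 windows, an E'-box in 4.68%, a D-box in 2.32% and a RORE in 0.384%. Among the members, Per1 held an E-box 166 bases before its start, and Cry1 held an E-box at 60 and an E'-box at 79 bases before. Nr1d1 held an E'-box at 28 bases and Cry2 at 166 bases before the start, and Per3 held D-boxes at 205 and 158 bases before it. Arntl held a RORE 27 bases after 1 of its annotated starts. No match was found in the windows of Clock, Npas2 and Nr1d2, which says only that these letters are not there. A match is a description of the sequence and not a bound site. The stretches of Per1 (chr11:69098699-69098948, plus strand), Cry1 (chr10:85185055-85185304, minus strand) and Nr1d1 (chr11:98775378-98775627, minus strand) are the 250 bases before the start, and that of Arntl (chr7:113207528-113207557, plus strand) is the 30 bases around its RORE. They run 5' to 3' on the strand of the gene, with the matches in capitals.
Per1: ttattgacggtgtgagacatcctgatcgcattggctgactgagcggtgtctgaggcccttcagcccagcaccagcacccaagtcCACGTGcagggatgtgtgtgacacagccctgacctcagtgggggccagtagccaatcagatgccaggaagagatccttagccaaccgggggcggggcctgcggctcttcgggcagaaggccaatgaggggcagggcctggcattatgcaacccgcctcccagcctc
Cry1: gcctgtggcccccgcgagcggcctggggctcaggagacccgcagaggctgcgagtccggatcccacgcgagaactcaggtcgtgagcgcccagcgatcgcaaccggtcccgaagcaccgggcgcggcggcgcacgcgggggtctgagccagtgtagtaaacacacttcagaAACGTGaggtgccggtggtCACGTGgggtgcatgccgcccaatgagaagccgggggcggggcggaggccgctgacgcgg
Nr1d1: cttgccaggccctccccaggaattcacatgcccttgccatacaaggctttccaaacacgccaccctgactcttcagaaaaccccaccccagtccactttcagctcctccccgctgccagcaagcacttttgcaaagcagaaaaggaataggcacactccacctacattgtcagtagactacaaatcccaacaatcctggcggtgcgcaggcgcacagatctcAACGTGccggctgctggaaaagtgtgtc
Arntl: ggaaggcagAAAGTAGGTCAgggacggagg

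The arrays differed in the signal from the ends of control transcripts. The array carries separate probe sets for the 3' and the 5' end of Gapdh, and the 3' set was 1.27 and 1.15 times as bright as the 5' set in the P54 arrays and 1.18 times in P59 replicate 1. In P59 replicate 2 it was 23.8 times as bright. The same ratio for Actb was 1.36, 1.44 and 1.13 in the first 3 arrays and 3.12 in P59 replicate 2. For Pcx the ratio in P59 replicate 2 was 11.3 against 5.72 to 10.1 in the others, again the highest. For Tfrc, whose sets both lay below the filter, it was 2.05 against 3.34 to 3.95, the lowest of the 4 arrays. P59 replicate 2 thus had the highest ratio for 3 of the 4 controls, and the clock gene values are given for each array. What the 3' to 5' signal does to each clock gene was not tested. Over 4200 genes with at least 2 sets above the filter, the 2 brightest sets of a gene differed in their deviation by a median of 0.20 (log2) in P59 replicate 2 and by 0.11 to 0.15 in the others.

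Of the clock genes, Per1 set the P54 and P59 samples apart most clearly, by 2.83-fold. No clock gene passed the adjusted threshold of 0.05 in limma, 0 of the 9 tested, where 0.0183% of all genes tested were called. At an unadjusted p under 0.05 Per1 was the 1 clock gene that was lower, against 3.01% of all genes, and 0 were higher, against 3.47%. Both P59 arrays lay below both P54 arrays for 2 of the 9, Per1 and Cry2, against 14.8% of all genes, and above them for 1 of the 9, Arntl, against 18.9%. In the other 6 the groups overlapped. The median difference of the 9 was -0.097 on the log2 scale and that of all genes tested was 0.049.

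**Figure D1:**
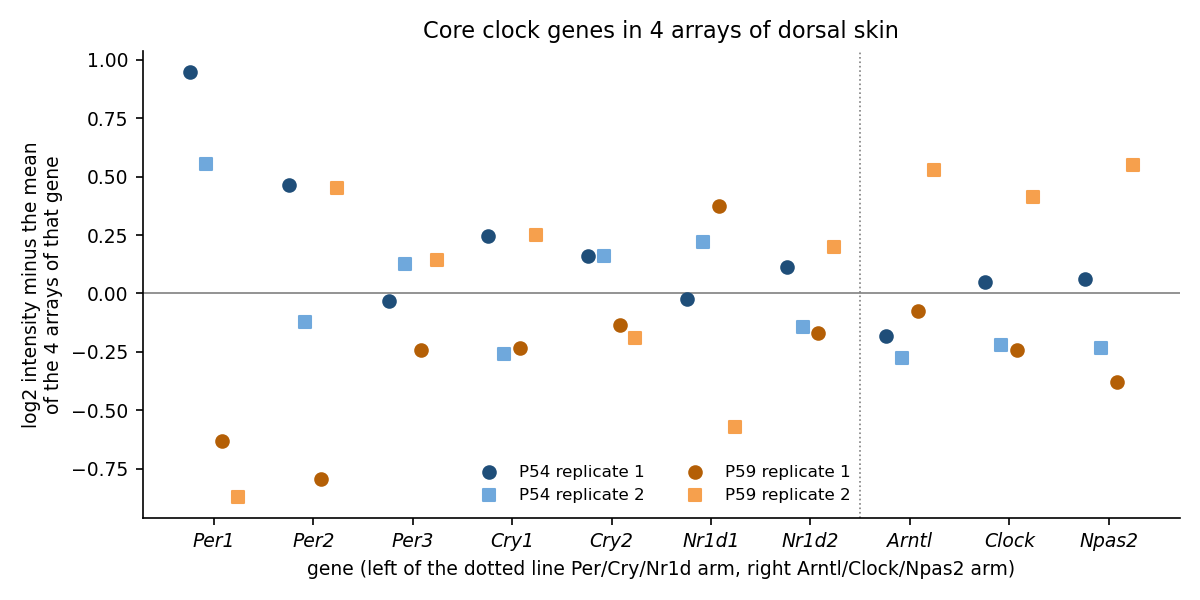
Log2 intensity of each core clock gene in the 4 arrays, centred on the mean of its 4 arrays (vertical axis), for the highest-mean probe set of each gene. Both P59 points of Per1 lie below both P54 points. P59 replicate 2 is the highest point for 6 of the 10 genes: Arntl, Clock and Npas2, and also Per3, Cry1 and Nr1d2 of the other arm.

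Per1 encodes a period protein and also answers quickly to outside signals such as glucocorticoids and cAMP. It read 10.63 and 10.23 (log2 intensity, replicate 1 first) in the P54 arrays, against 9.05 and 8.81 in the P59 arrays. Both late telogen arrays were thus low, and the gap between the groups was larger than the gap within either of them. The means were 10.43 ± 0.28 and 8.93 ± 0.17 (SD, n = 2 per group), a log2 difference of -1.50 (SE 0.24, 95% interval -2.04 to -0.96, limma adjusted p = 0.106). By size, 21 of the 10916 genes tested had a difference as low or lower, and by p-value Per1 stood 10th.

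The Per1 difference did not come from P59 replicate 2 alone. P59 replicate 1 by itself lay 2.61-fold below the P54 mean and P59 replicate 2 by itself 3.07-fold. In limma the adjusted p was 0.0160 when arrays were centred on their medians, 0.0243 without P54 replicate 2 and 0.0175 without P59 replicate 1, and 0.177 without P54 replicate 1 and 0.124 without P59 replicate 2. It was 0.349 with no intensity filter and 0.901 in the fit of every probe set without a filter. The lowest of the alternatives was 0.000215, with the replicate block. The call therefore depends on the setting, whereas the direction was the same in all alternatives run. Per1 had 1 probe set (1449851_at), so no second set could be compared.

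Per2, the period gene that carries much of the loop's negative feedback, was split within P59. Its brightest set (1417602_at) read 9.08 and 8.49 in the P54 arrays, 7.82 in P59 replicate 1 and 9.07 in P59 replicate 2. P59 replicate 1 was the lowest array and P59 replicate 2 lay level with the higher P54 array. The difference was -0.34 (SE 0.38, adjusted p = 0.952), or -0.96 without P59 replicate 2 and 0.28 without P59 replicate 1. The gap of 1.25 between the P59 arrays was matched or exceeded by 2.23% of all genes tested. The other sets of Per2 were lower at P59 in both arrays. The second (1457350_at) read 7.74 and 8.35 at P54 and 6.30 and 7.31 at P59, a difference of -1.23, and the dimmest (1417603_at) read 7.33 and 6.73 against 6.56 and 6.01, a difference of -0.74. All 3 sets of Per2 thus had a lower mean at P59, and only in the brightest did the groups overlap. The mean of the 3 sets differed by -0.77 (limma adjusted p = 0.671, the alternatives for Per2 giving 0.468 or more).

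Per3, the third period gene, which is dispensable for the loop itself, showed little difference in its brightest set. That set (1421087_at) read 8.77 and 8.93 at P54 and 8.56 and 8.94 at P59, with a difference of -0.097 (95% interval -0.63 to 0.44). The groups overlapped. Of the other 5 sets, 2 lay below the filter, and 2 above it differed by 0.13 and 0.084. The remaining set (1458176_at) differed by -1.27, but it read 9.46 in P54 replicate 2 and 7.62 in P54 replicate 1, so its P54 arrays lay farther apart than its groups.

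**Figure D2:**
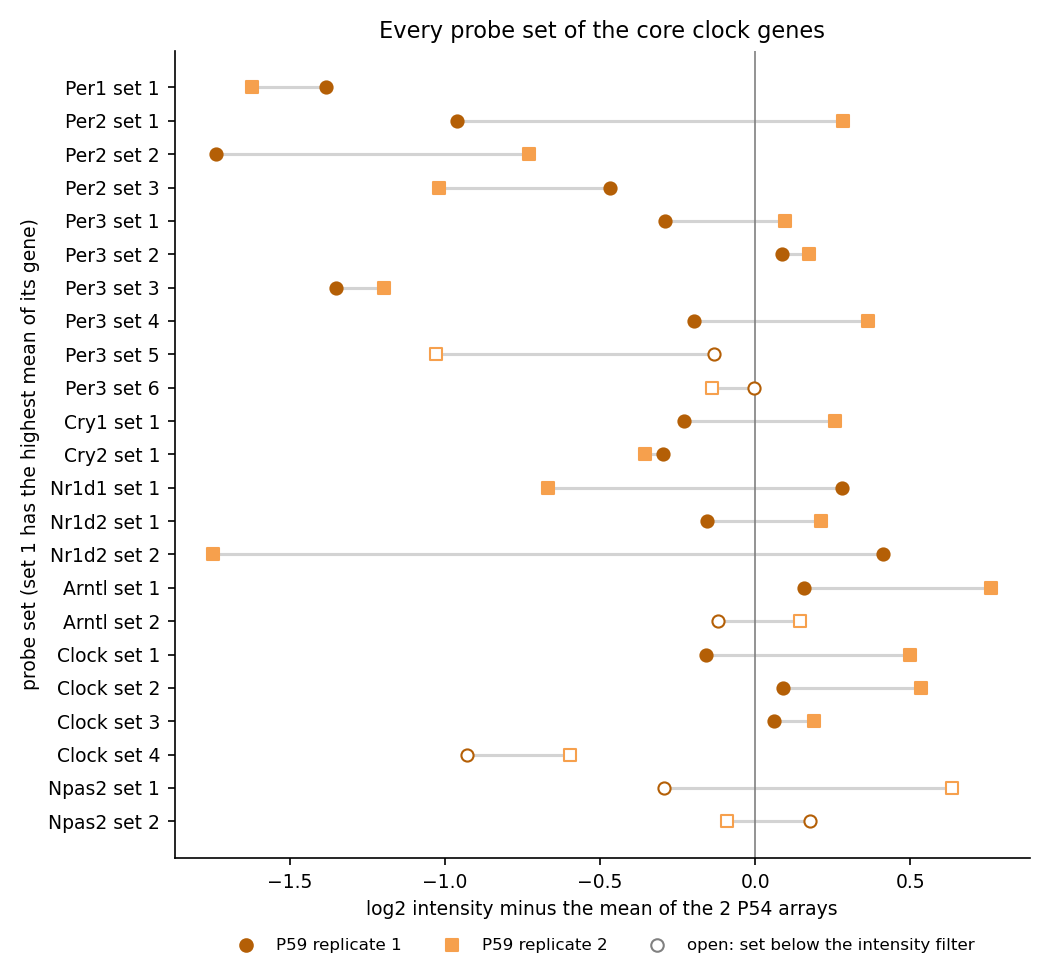
Every probe set of the clock genes, with each P59 array's log2 intensity minus the mean of the 2 P54 arrays of that set (horizontal axis); open symbols mark sets with a mean below the filter. Per1 and 2 of the 3 Per2 sets lie left of 0 in both arrays, and the second Nr1d2 set spreads from 0.41 in P59 replicate 1 to -1.75 in P59 replicate 2.

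The cryptochromes, which bind and silence the ARNTL pair, differed little. Cry1, which peaks later in the day than the period genes in most tissues, read 7.46 and 6.96 at P54 and 6.98 and 7.47 at P59. The groups interleaved completely, and the difference was 0.014 (95% interval -0.59 to 0.61, adjusted p = 0.999). Cry2 read 8.74 in both P54 arrays and 8.44 and 8.38 at P59. The P59 arrays were both lower, by a small amount, with a difference of -0.33 (SE 0.22, adjusted p = 0.909), or 1.25-fold. Cry2 was the steadiest member within groups, and its difference of -0.30 to -0.35 hardly moved whichever array was left out. Each cryptochrome was read by 1 set.

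The nuclear receptors Nr1d1 and Nr1d2, which silence Arntl, were set apart by P59 replicate 2 in their brightest sets. Nr1d1 read 9.21 and 9.45 in the P54 arrays, against 9.61 in P59 replicate 1 and 8.66 in P59 replicate 2. The P59 arrays were the highest and the lowest of the 4, and the mean difference of -0.19 (SE 0.31, adjusted p = 0.969) describes neither: it was 0.28 without P59 replicate 2 and -0.67 without P59 replicate 1. A gap as large as its 0.95 within P59 was seen in 5.22% of genes tested. Nr1d2 read 12.27 and 12.02 at P54 and 11.99 and 12.36 at P59 in its brightest set (1416958_at), with overlapping groups and a difference of 0.028 (95% interval -0.51 to 0.57). Its second set (1416959_at) read 8.10 and 7.63 in the P54 arrays, against 8.28 in P59 replicate 1 and 6.12 in P59 replicate 2. Like Nr1d1, that set was highest in P59 replicate 1 and lowest in P59 replicate 2. In P59 replicate 2 the sets therefore lay on opposite sides of their P54 values, the array with the Gapdh ratio of 23.8, and the part of that signal in the Nr1d2 values was not tested.

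Arntl, whose product is the partner the loop cannot lose, was higher at P59, most of all in P59 replicate 2. It read 7.39 and 7.29 in the P54 arrays, against 7.50 in P59 replicate 1 and 8.10 in P59 replicate 2 (1425099_a_at). The groups did not overlap, but P59 replicate 1 lay close to the P54 arrays. The difference was 0.46 (SE 0.26, 95% interval -0.12 to 1.03, adjusted p = 0.870), or 0.16 without P59 replicate 2 and 0.76 without P59 replicate 1. The second set of Arntl had a mean below the filter and differed by 0.014.

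Clock, the partner whose transcript varies least over the day in most tissues, read 8.63 and 8.36 at P54 and 8.34 and 9.0 at P59. P59 replicate 2 was the highest array and P59 replicate 1 the lowest, and the difference was 0.17 (SE 0.27, adjusted p = 0.970), or -0.16 without P59 replicate 2. The 2 other sets of Clock above the filter differed by 0.31 and 0.13, with P59 replicate 2 again the highest, and a dim set differed by -0.76. Npas2, the alternative partner, lay below the filter in both of its sets. Its brighter set read 5.26 and 4.97 at P54 and 4.82 and 5.75 at P59, and a level this dim supports no comparison. In the fit of all genes without the filter its difference was 0.17 (SE 0.32).

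The 2 arms were then set side by side in each array. For each gene the log2 values were centred on the mean of its 4 arrays, and the centred values were averaged over the 7 genes of the Per/Cry/Nr1d arm and the 3 of the Arntl/Clock/Npas2 arm. The Per/Cry/Nr1d arm was at 0.27 and 0.077 in the P54 arrays and at -0.26 and -0.084 in the P59 arrays. The Arntl/Clock/Npas2 arm was at -0.022 and -0.24 in the P54 arrays, against -0.23 in P59 replicate 1 and 0.50 in P59 replicate 2. The first arm was lower in both P59 arrays with Per1 in it. Without Per1, an alternative added after seeing the data, its other 6 genes were at 0.16 and -0.0028 in the P54 arrays, against -0.20 in P59 replicate 1 and 0.047 in P59 replicate 2, and the groups overlapped. The second arm was high in P59 replicate 2 alone. The first arm minus the second was 0.29 and 0.32 in the P54 arrays, against -0.030 in P59 replicate 1 and -0.58 in P59 replicate 2, a difference between the times of -0.61 (0.31 ± 0.02 at P54 and -0.31 ± 0.39 at P59, SD, n = 2 per group). It was -0.34 without P59 replicate 2, -0.89 without P59 replicate 1 and -0.42 without Per1. No test is attached to these means, since the members were chosen with results of these data known, and 1 of the 3 genes in the second arm is Npas2.

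The pair with the plainest opposite roles, Nr1d1 and Arntl, was followed from array to array. Relative to the P54 mean, the log2 level of Nr1d1 minus that of Arntl differed by 0.12 in P59 replicate 1 and by -1.43 in P59 replicate 2. The P54 arrays lay at -0.17 and 0.17 on that scale. The pair thus lay apart in 1 array, the one with the high 3' to 5' ratio of Gapdh and Actb. Its part in the result was not tested.

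**Figure D3:**
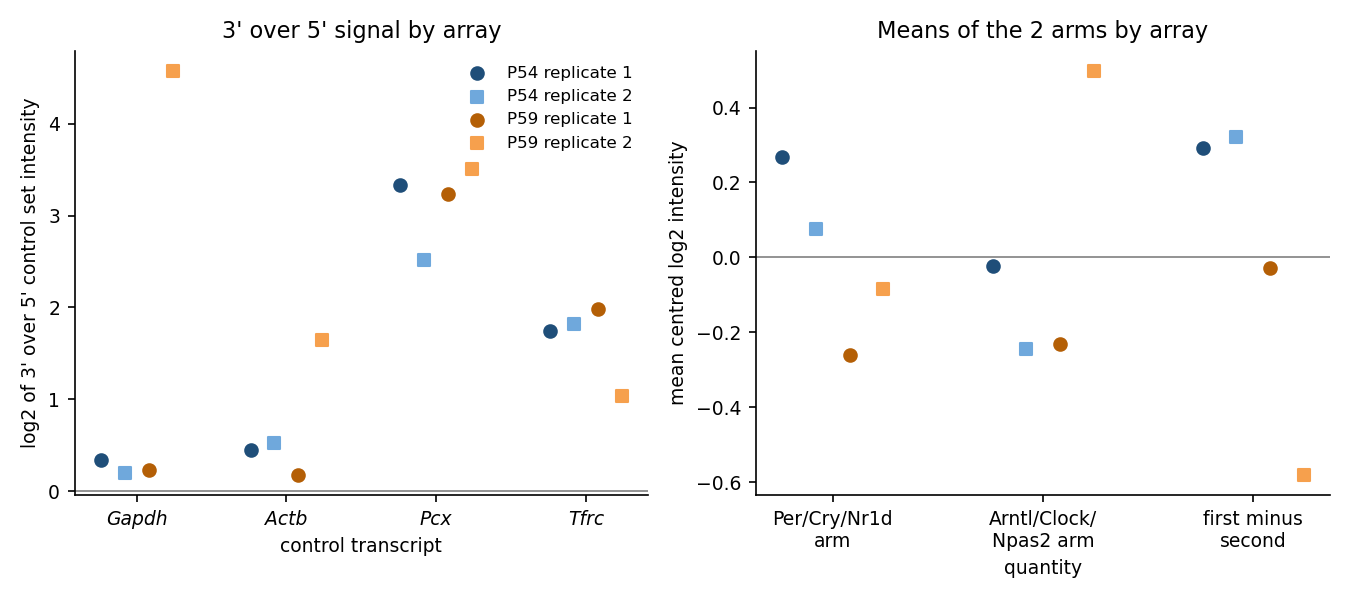
Left, log2 of the 3' over the 5' control set intensity for 4 control transcripts; right, the mean centred log2 intensity of each arm and the first minus the second, by array. P59 replicate 2 stands at 4.57 for Gapdh, where the other arrays lie between 0.20 and 0.34, and it is the highest array for the Arntl/Clock/Npas2 arm at 0.50.

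Output genes of the clock, which the loop drives, were read next. Of 6 tested, 5 had a lower mean at P59, against 41.6% of all genes tested, and 1 a higher one, with a median of -0.27. At an unadjusted limma p under 0.05 2 were lower, against 3.01% of all genes, and 0 were higher, against 3.47%; 0 passed the adjusted threshold. In 3 of the 6 the P59 arrays lay below both P54 arrays, against 14.8% of all genes. In the other 3, Hlf, Nfil3 and Noct, the groups overlapped. Wee1, the kinase gene that links the clock to entry into mitosis, read 10.73 and 10.31 at P54 and 8.68 and 9.40 at P59. Both P59 arrays were lower, and the difference was -1.48 or 2.79-fold (SE 0.29, adjusted p = 0.179). It passed in limma when arrays were centred on their medians (adjusted p = 0.0298), without P54 replicate 2 (0.0245) and without P59 replicate 2 (0.0421), while the filterless fit gave 0.408, the highest of its alternatives, and the replicate block 0.000292, the lowest. Dbp, a D-box activator that is a standard readout of the ARNTL pair, read 11.27 and 11.57 at P54 and 10.69 and 10.59 at P59, with a difference of -0.79 (SE 0.23, adjusted p = 0.490). Tef, a relative of Dbp, read 11.47 and 11.46 against 11.12 and 11.13, a small difference (-0.34, adjusted p = 0.893) between tight groups. Hlf, the third of these factors, overlapped (-0.20, adjusted p = 0.954) and differed by 0.088 without P59 replicate 1.

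The genes that tune the loop were divided between higher and lower means. Of 25 listed, 22 had a probe set and 18 were tested. By mean, 10 were lower, against 41.6% of all genes tested, and 8 were higher, with a median of -0.014. At an unadjusted limma p under 0.05 1 was lower, against 3.01% of all genes, and 1 was higher, against 3.47%. Of the 18, 0 passed the adjusted threshold. Both P59 arrays lay below both P54 arrays for 5 of the 18, against 14.8% of all genes, and above them for 2, against 18.9%. Ciart, a repressor of the ARNTL pair that is itself driven by E-boxes, read 8.23 and 8.27 at P54 and 7.46 and 7.59 at P59. It was lower in both P59 arrays by 1.66-fold (-0.73, SE 0.22, adjusted p = 0.498). Nampt, the NAD-making enzyme under clock control, was higher by 0.66 (adjusted p = 0.764), with 9.62 and 9.09 at P54 and 9.67 and 10.36 at P59. Without P59 replicate 2 that difference was 0.32 and without P59 replicate 1 it was 1.01. Csnk1d, a kinase that marks PER proteins for breakdown, read 10.55 and 10.84 at P54 and 10.13 and 10.48 at P59, a difference of -0.39 (adjusted p = 0.891) that was -0.21 without P59 replicate 1. Its groups did not overlap, but the lower P54 array lay close to P59 replicate 2. The deacetylase gene Sirt1 read 8.31 and 7.67 in the P54 arrays, against 8.12 in P59 replicate 1 and 8.82 in P59 replicate 2. Its groups overlapped, and the difference of 0.48 (adjusted p = 0.891) was 0.13 without P59 replicate 2 and 0.83 without P59 replicate 1.

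**Figure D4:**
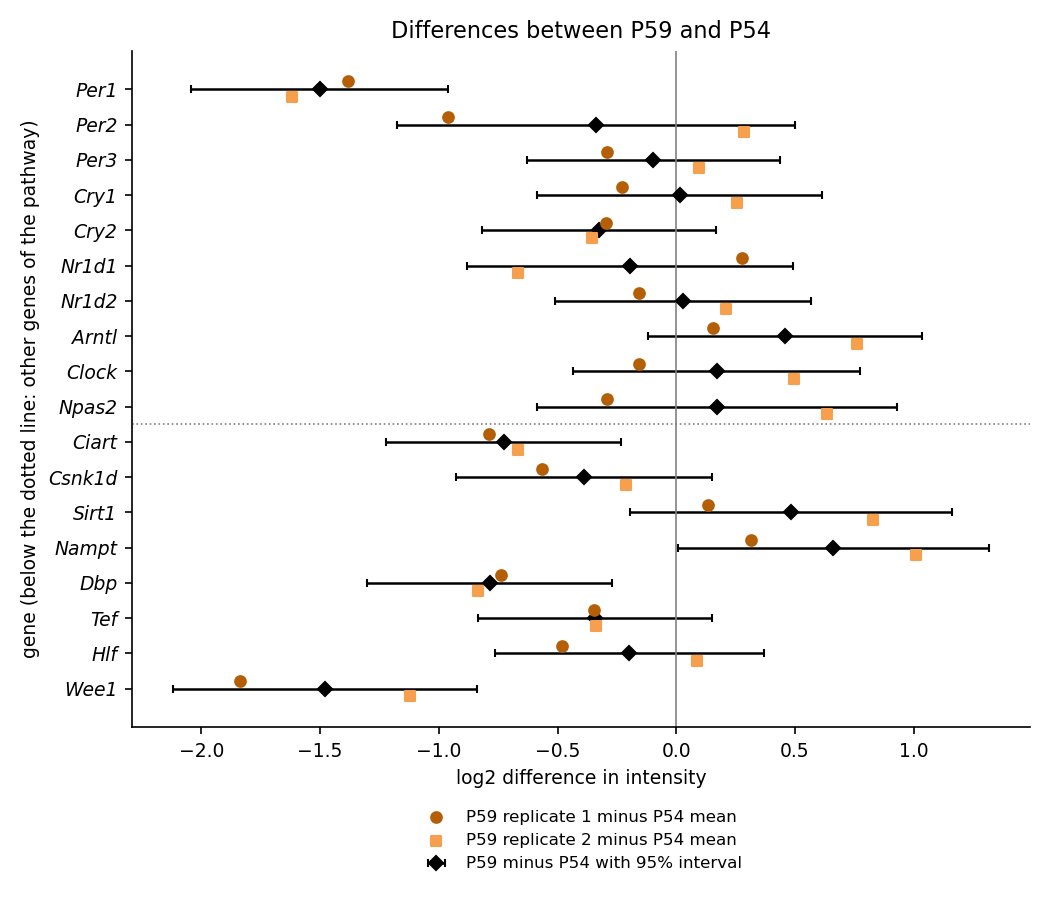
Log2 difference between P59 and P54 (diamonds, with the 95% interval of limma) and each P59 array minus the P54 mean, for the 10 clock genes and, below the dotted line, the named genes of the pathway. Per1, Cry2, Ciart, Csnk1d, Dbp, Tef and Wee1 lie left of 0 with both arrays, and Arntl, Sirt1 and Nampt right of it.

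Per1 answers to stress and glucocorticoids beside the clock, so genes of those responses were read in the same arrays. Of 12 tested, 9 had a lower mean at P59, against 41.6% of all genes tested, and 3 a higher one, with a median of -0.37 (-0.075 without P54 replicate 1 and -0.71 without P54 replicate 2). At an unadjusted limma p under 0.05 4 were lower, against 3.01% of all genes, and 0 were higher, against 3.47%; 0 passed the adjusted threshold. The immediate early gene Fos read 12.19 in P54 replicate 1, 9.85 in P54 replicate 2 and 9.64 and 9.65 at P59, a difference of -1.37 (adjusted p = 0.726) that was -0.20 without P54 replicate 1. It was -2.55 without P54 replicate 2 (limma adjusted p = 3.2e-06), and the replicate block gave an adjusted p of 0.00126. Fos was far higher in P54 replicate 1 than in the other 3 arrays. Junb, of the same family, read 8.09 and 8.44 in the P54 arrays, against 7.80 in P59 replicate 1 and 6.71 in P59 replicate 2. Its difference was -1.01 (adjusted p = 0.575), or -0.46 without P59 replicate 2 and -1.55 without P59 replicate 1 (adjusted p = 0.0177). Jun read 10.83 and 10.10 at P54 and 9.81 and 9.78 at P59, a difference of -0.67 (adjusted p = 0.723) that ranged from -1.03 to -0.31 with 1 array left out. The phosphatase gene Dusp1 read 11.93 and 11.25 at P54 and 10.39 and 11.10 at P59, a difference of -0.85 (adjusted p = 0.618) that ranged from -1.20 to -0.49 with 1 array left out. The P59 arrays of Fos, Jun, Junb and Dusp1 lay below both P54 arrays, 4 of the 12 tested, against 14.8% of all genes. Those of Fkbp5 lay above both, 1 of the 12, against 18.9% of all genes. Among glucocorticoid targets in the list, Fkbp5 differed by 0.64, Zbtb16 by 0.13 and Klf9 by 0.023. Tsc22d3 differed by -0.16 and Sgk1 by -0.22. Each of these was higher in P59 replicate 2 than in P59 replicate 1, so these means combine unlike arrays. Relative to the P54 mean, Tsc22d3 lay at -0.81 in P59 replicate 1 and at 0.49 in P59 replicate 2. In the same order Klf9 lay at -0.33 and 0.37 and Zbtb16 at -0.24 and 0.49. Sgk1 lay at -0.49 and 0.060, and Fkbp5 at 0.23 and 1.05. The part of these responses in the Per1 values was not tested.

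Markers of several cell types also had different values at the 2 times. All 6 keratinocyte and all 6 fibroblast markers lay above the filter, as dorsal skin should show. The 7 markers of the growing follicle were all higher at P59, whose summed signal (log2) was 9.73 and 8.15 in the P54 arrays against 13.66 and 11.25 later, highest in P59 replicate 1. Krt25, a keratin of the inner root sheath that forms in the growing follicle, read 7.21 and 4.49 at P54 and 11.64 and 9.09 at P59, beside the telogen label of both groups. Of these 7, 0 passed the adjusted limma threshold and 7 were higher at an unadjusted p under 0.05, against 3.47% of all genes. Their P54 means, 5.71 to 6.52, all lay below the filter (log2 6.58). They were therefore tested only through their P59 values, and the count of 7 lends no support. Keratinocyte markers had lower means in 6 of 6, with sums of 16.07 and 16.17 at P54 against 15.85 and 15.82. Macrophage markers had higher means in 6 of 6, with sums of 12.99 and 12.80 against 13.12 and 13.44. Both P59 arrays lay above both P54 arrays for 3 of these 6, against 18.9% of all genes. Relative to the P54 mean, Csf1r (-0.24) and Cd163 (-0.51) lay lower in P59 replicate 1 and C1qb (-0.22) in P59 replicate 2. Adipocyte markers were lower in 5 of 5, with a median of -0.44 and sums of 14.01 and 13.81 against 13.50 and 13.68. Other lists were mixed. Endothelial markers were lower in 5 of 6 (median -0.22), fibroblast markers in 2 of 6 (0.029) and skeletal muscle markers in 3 of 6 (0.040). Of all genes tested, 41.6% had a lower mean at P59. Of 4 neutrophil markers with a probe set, 2 were tested and both were higher, with sums over the list of 7.42 and 7.68 at P54 against 8.93 and 9.65. S100a8, one of them, passed the adjusted threshold (2.17, limma adjusted p = 0.0387) and was 1 of the 2 genes called among all tested. The P54 means of both tested markers (6.35 and 5.89) also lay below the filter, so they too were tested only through their P59 values. The defining markers Mpo and Cxcr2 lay below the filter. Of the proliferation markers, 3 were tested and all 3 had a higher mean, with a median of 0.045 against 0.049 over all genes tested. The groups overlapped for Top2a and Cdk1. The part of these cell types in the clock gene values was not tested.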

How the data were processed

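Dorsal skin RNA was hybridised to 4 Affymetrix arrays, 2 per age. The authors deposited 1 table of linear intensity values for 45101 probe sets; the submitters' processing notes name RMA and Affymetrix Expression Console, whose versions and settings are not given in the sources used here. RMA evens out distributions across arrays, which can hide a shift common to most genes. Log2 was taken with no pseudocount. Sets with 1 symbol in GEO's platform annotation (34958, with 932 holding several and 9211 unlisted) were kept, array controls apart. Each gene was represented by its brightest set (highest mean), and genes above the 40th percentile (log2 6.58) were tested.

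P59 was set against P54 in limma 3.58.1 (R 4.3.3), with Benjamini-Hochberg adjustment over all 10916 genes. The fit leaves 2 residual degrees of freedom, to which the shared prior adds 8.18. An exact permutation test of 2 arrays against 2 cannot go below 0.333. The number of arrays limits the precision. Levels of different probe sets were not compared. The fit was tested on simulated data with independent noise and changes larger than any clock gene difference here. That test does not cover differences of the size found in the clock genes.

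The members and lists were chosen with earlier results of these data known. Named are all members, up to 4 genes of each pathway list with the smallest p, and, in the closing section, the 5 genes nearest to Arntl and to Nr1d1; those nearest to Per1, the glucocorticoid targets, Nfil3, Noct, Krt25, S100a8, Mpo and Cxcr2 were added after their values were seen. The alternatives were no filter, a filter at the 60th percentile, the mean of all sets, each set alone, quantile normalization again, centring on array medians, an intensity trend, the replicate number as a block, other members in the arms, and each array left out.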

Additional observations from a re-analysis of the deposited data

How the results depend on the processing

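The count of all genes past the adjusted threshold in limma was 2, both higher. It was 0 without the filter, with the 60th percentile filter, after repeated quantile normalization and with probe sets averaged (1122, 457, 758 and 705 at an unadjusted p under 0.05). Centred arrays gave 49, of which 37 were higher and 12 lower, the replicate block 156, of which 75 were higher and 81 lower, and leaving out 1 array 29 (24 higher and 5 lower, without P59 replicate 2) to 402 (115 higher and 287 lower, without P59 replicate 1). Of the clock genes 1, Per1, was past it with centred arrays (difference -1.46) and with the replicate block (-1.50, adjusted p = 0.000215), and 0 to 1 with an array left out, when Per1 differed by -1.70 to -1.30. The replicate numbers are labels only: the deviations of same-numbered arrays correlated at -0.037 across genes, and the calls of no clock gene but Per1 differed under the block. The sign of uncalled members turned in these cases. Nr1d2 differed by -0.32 with the mean of its sets, -0.013 after repeated quantile normalization and -0.67 in its second set; Clock by -0.039 with the mean of its sets and -0.76 in its dimmest set; Per3 by 0.13 and 0.084 in 2 of its other sets. With 1 array left out the ranges were -0.96 to 0.28 for Per2, -0.29 to 0.097 for Per3, -0.24 to 0.27 for Cry1, -0.67 to 0.28 for Nr1d1, -0.16 to 0.21 for Nr1d2, -0.16 to 0.50 for Clock, -0.29 to 0.64 for Npas2 and -0.48 to 0.088 for Hlf. The cause was not tested. The arm difference kept its sign, at -0.89 to -0.34 with an array left out, -0.67 without Cry1, -0.66 without Clock and -0.42 without Per1. The list medians with an array left out, like the arm without Per1 an alternative added after seeing the data, ranged from -0.097 to 0.10 for the genes that tune the loop, from -0.41 to -0.13 for the output genes and from -0.71 to -0.075 for the stress genes. With 1 array left out, the lone array of a group is assumed to vary like the other group.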

Other observations

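Genes with a pattern over the 4 arrays close to that of a clock gene were ranked by the root mean square distance between log2 values centred per gene. The genes of every list here, and clone and Riken symbols, were passed over, and the clock genes were ranked apart. The ranking is a description with no test, and with 10916 genes and 4 arrays many genes can lie near a pattern. Closest to Arntl were Rnase4 (distance 0.023), Gkap1, Trmt10b, Wrn and Nfxl1 (0.030), each highest in P59 replicate 2, and the nearest clock gene was Clock (0.16). Closest to Nr1d1 were Zfp358 (0.030), Abtb1, Ctsf, Tfb2m and Tspo (0.051), each lowest in P59 replicate 2, and the nearest clock gene was Cry2 (0.33). That the genes named share the highest array of Arntl or the lowest of Nr1d1 follows from choosing them by distance. Around Per1, chosen after its values were seen, the distances to the nearest of the genes ranked were larger. The distance is not scaled by range, and Per1 ranged over 1.82 across the arrays, against 0.81 for Arntl and 0.95 for Nr1d1. The larger distances therefore do not say how rare the pattern is. Nnat, the neuronatin gene, was at 0.070, and Tent5b, Mfsd2a, Rfx2 and Ifitm6 were at 0.19 to 0.22. Nnat read 9.26 and 8.99 at P54 and 7.80 and 7.64 at P59. The nearest clock gene to Per1 was Cry2, at 0.61.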
